A study of Mus musculus with 10 samples.

Results

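The comparison described here is the genotype by CCl4 interaction in mouse liver. For each gene it is the response to CCl4 in sgBap1 livers minus the response in NTC livers, where a response is the log2 fold change from the vehicle group of the same genotype. A negative value marks a gene that responded less upward, or more downward, after Bap1 targeting, and a positive value the opposite. All 10 of the 10 livers in the series entered it, and 17015 of the 55291 genes in the table had enough reads to be tested. The gene lists described were chosen by function and cell type, with earlier results of these data known. Their counts are therefore descriptions without a test. The members that were tested are counted for each. The groups were NTC-Veh (2 mice), sgBap1-Veh (2 mice), NTC-CCl4 (3 mice) and sgBap1-CCl4 (3 mice). They were female mice aged 16 to 20 weeks that carry Cas9 behind a loxP-flanked stop cassette. Every mouse received an AAV8 virus with a guide RNA and Cre under the TBG promoter, which is active in hepatocytes. The guide was either non-targeting (NTC) or directed at Bap1, so virus, Cre and Cas9 were shared by all groups. By this design other cells of the liver keep Bap1. After 10 days the mice received CCl4, as 1 part in 9 parts of olive oil, or olive oil alone as vehicle (Veh). RNA of the right lobe was sequenced 48 h later.

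CCl4 is converted by cytochrome P450 enzymes of hepatocytes around the central vein into radicals that kill these cells. The injury is followed by an influx of leukocytes, loss of metabolic gene expression and division of the surviving hepatocytes. BAP1 is a nuclear deubiquitinase that removes ubiquitin from histone H2A and so opposes Polycomb repressive complex 1. An interaction asks whether targeting Bap1 in hepatocytes altered how far each function moved with the injury. The paper reports partial editing of the Bap1 site in these livers, so some hepatocytes may keep the enzyme.

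Total estimated counts per liver were 3.30e+07 to 5.22e+07, and 3 counts corresponded to at most 0.112 CPM (counts scaled to a common library size). CPM values are scaled by TMM, a method that assumes most genes do not change. Bap1 itself measured 34.8 and 34.8 CPM in the NTC-Veh livers, 17.5 and 19.5 CPM in the sgBap1-Veh livers, 30.1, 31.5 and 29.5 CPM in the NTC-CCl4 livers and 17.0, 21.8 and 19.1 CPM in the sgBap1-CCl4 livers. It was lower in sgBap1 livers with vehicle (log2 difference -0.91, adjusted p = 0.0208) and with CCl4 (-0.65, adjusted p = 0.0295), with no overlap of the mice, and its interaction was 0.26 ± 0.15 (SE, adjusted p = 0.616). The liver sgBap1-CCl4 replicate 2 carried markers of fat tissue. Its adipocyte markers summed to 668 CPM, against 41.2 to 67.3 CPM in the other 9 livers, and Adipoq and Plin1 measured 36.4 and 34.5 CPM there against at most 0.0425 CPM elsewhere. Several counts and medians that it moved by more than 1.5 times are given without it. The scaling matters for the responses more than for their difference. Without TMM, by library size alone, the median response of all genes rose from 0.03 to 0.50 in NTC and from 0.04 to 0.52 in sgBap1 livers, while the median interaction stayed near 0 (-0.02 and -0.01).

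In NTC livers 4659 genes (27.4%) rose and 4519 (26.6%) fell with CCl4, and in sgBap1 livers 4942 (29%) rose and 4758 (28%) fell (edgeR quasi-likelihood test, adjusted p under 0.05). By library size alone 80.5% rather than 50.8% of the called genes were higher in NTC livers, and 78.3% rather than 50.9% in sgBap1 livers. The quasi-likelihood test called 0 genes (0%) for the interaction at the 0.05 threshold. Its lowest adjusted p was 0.0694, and 90 genes (0.529%) were under 0.1. At an unadjusted p under 0.05 the interaction was negative for 1153 genes (6.78%) and positive for 611 (3.59%). DESeq2's Wald test called 303 negative genes (2.01%) and 105 positive genes (0.697%) of the 15058 to which it gave an adjusted p. Limma-voom called 0. In edgeR 406 of the 408 had an unadjusted p under 0.05, and 88 had an adjusted p under 0.1. No single gene is therefore called by the main test, and each adjusted p below is from edgeR unless DESeq2 is named. Counts of genes at an unadjusted p under 0.05 are to be read against 6.78% and 3.59%.

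Among the 1153 negative genes, 492 (42.7%) had responses above 0 in both genotypes, by less in sgBap1 livers. A further 393 (34.1%) had responses below 0 in both genotypes, further below in sgBap1 livers, and 268 (23.2%) were above 0 in NTC and below 0 in sgBap1 livers. Of the 611 positive genes, 289 (47.3%) were above 0 in both, 126 (20.6%) below 0 in both and 196 (32.1%) below 0 in NTC and above 0 in sgBap1 livers. Over all tested genes 45.2% were above 0 in both and 41.7% below 0 in both. A further 6.38% of them were above 0 in NTC and below 0 in sgBap1 livers, and 6.76% the reverse. Leaving aside the adipocyte, pancreatic and red blood cell lists, which stand for other tissues, the 8 most negative medians belonged to 7 immune lists and to fatty acid synthesis. The most positive of the other lists were p53 targets and immediate early genes. The 6 adipocyte genes tested had a median of 1.62, and of -0.48 without sgBap1-CCl4 replicate 2. Red blood cell genes had a median of -0.92 over 6 tested genes, all below 0, with 0 at an unadjusted p under 0.05 (5 without NTC-CCl4 replicate 1). They summed to 2469 and 1657 CPM in NTC-CCl4 replicates 2 and 3 and to 581 to 1085 CPM in the other 8 livers. The part of blood in the immune lists below was not tested.

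**Figure D1:**
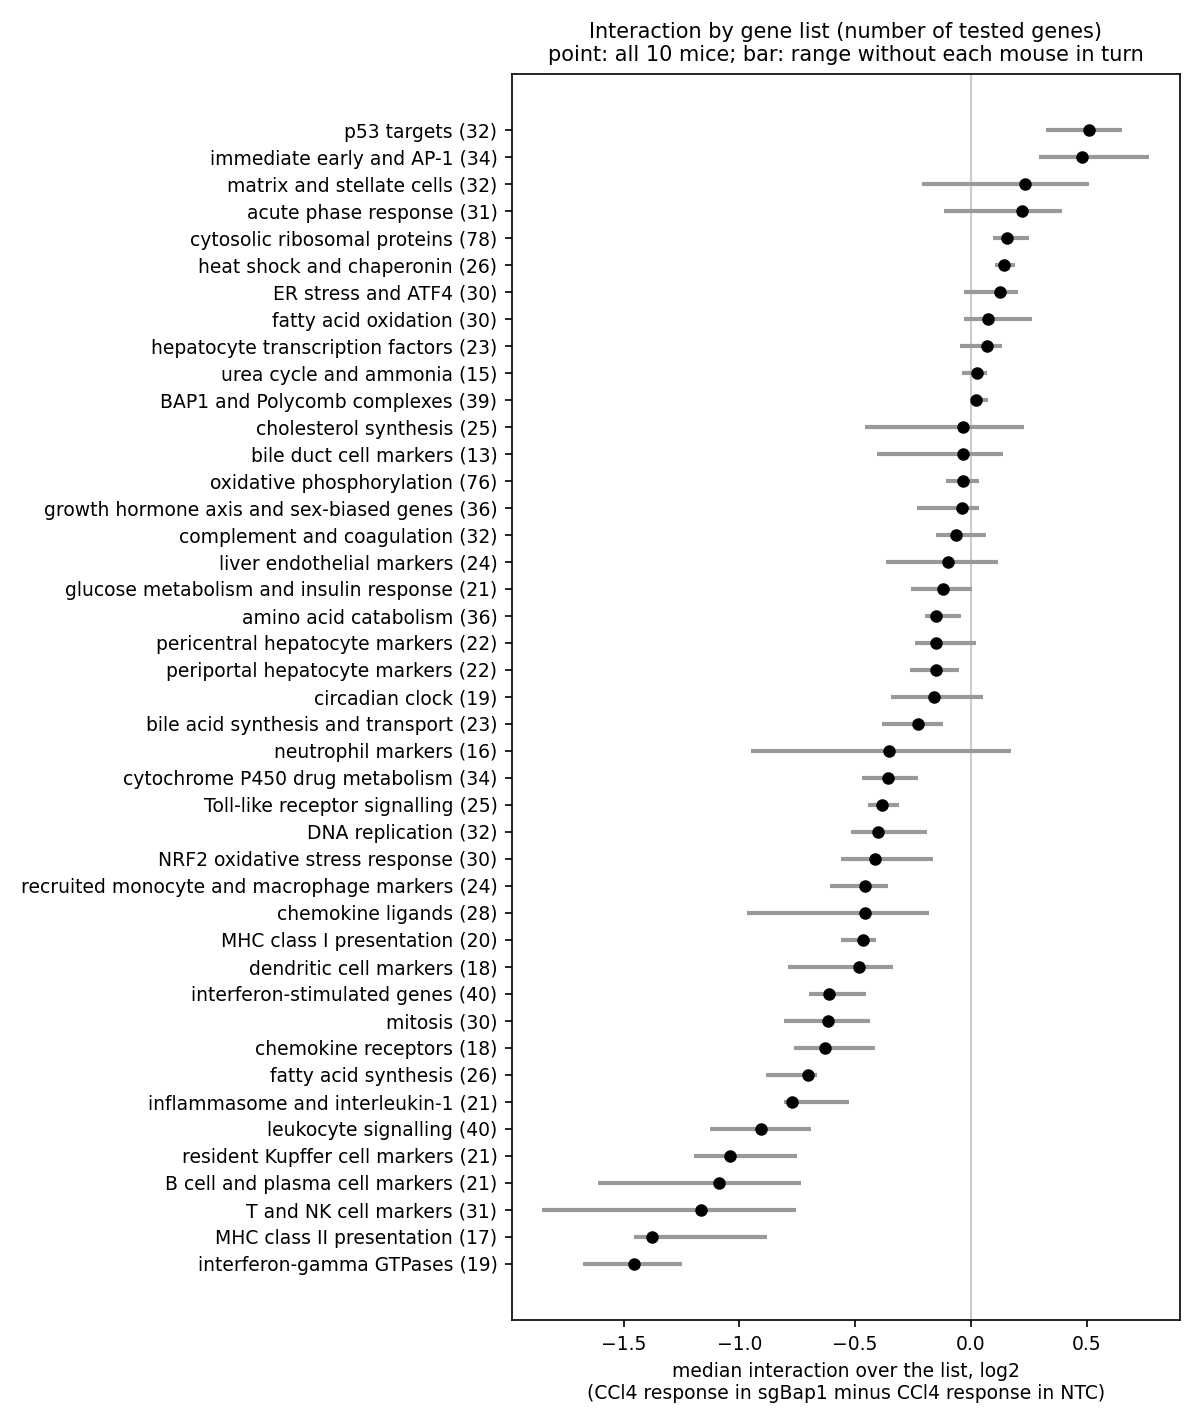
Median interaction (log2, x axis) over the tested genes of each list, without the 3 lists of other tissues, with the number of genes in parentheses; points are the fit of all 10 mice and bars span the fits that leave out each mouse in turn. The points run from -1.46 for interferon-gamma GTPases to 0.51 for p53 targets. Many bars cross 0, among them those of matrix genes, acute phase genes, neutrophil markers, cholesterol synthesis, the circadian clock and endothelial markers.

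Genes of MHC class II presentation, which load peptides for helper T cells and are made by macrophages, dendritic cells and B cells, rose with CCl4 in NTC livers for 12 of the 17 tested genes, and in sgBap1 livers 3 rose and 5 fell (0 fell by library size alone). Their median response was 1.09 in NTC and -0.29 in sgBap1 livers (0.18 by library size alone), which leaves a median interaction of -1.38. At an unadjusted p under 0.05 13 of the 17 were negative and 0 positive, and DESeq2 called 8. Without sgBap1-Veh replicate 1 the median was -0.88. H2-Ab1 (chr17:34257689-34269419, GRCm38, as for all positions below), the beta chain of the I-A molecule, measured 21.2 and 21.3 CPM in the NTC-Veh livers, 61.2 and 50.2 CPM in the sgBap1-Veh livers, 34.4, 37.3 and 48.0 CPM in the NTC-CCl4 livers and 28.7, 41.1 and 34.0 CPM in the sgBap1-CCl4 livers. The level was low in the NTC-Veh livers alone. In NTC livers H2-Ab1 rose by 0.91 (adjusted p = 0.00177) and in sgBap1 livers it fell by 0.69 (adjusted p = 0.00629), a fall that was 0.20 and did not pass by library size alone (adjusted p = 0.409). Its interaction was -1.60 ± 0.25 (SE, adjusted p = 0.0694 in edgeR and 4.63e-06 in DESeq2), and -1.74 to -1.44 with each mouse left out. H2-Aa, the alpha chain, had an interaction of -1.73 ± 0.27 and H2-DMa, which exchanges peptides in the class II groove, of -1.49 ± 0.24. Cd74, H2-Eb1 and Ciita were chosen after their values were seen. Cd74, the invariant chain, measured 67.3 and 61.1 CPM in the NTC-Veh livers, 177 and 149.5 CPM in the sgBap1-Veh livers, 123, 123 and 182 CPM in the NTC-CCl4 livers and 98.3, 138 and 120.1 CPM in the sgBap1-CCl4 livers. Ciita, the transcription factor that switches on the class II genes, measured 1.55 and 2.02 CPM in the NTC-Veh livers, 4.66 and 3.63 CPM in the sgBap1-Veh livers, 3.52, 3.36 and 4.55 CPM in the NTC-CCl4 livers and 2.89, 3.54 and 2.47 CPM in the sgBap1-CCl4 livers. Both were lowest in the NTC-Veh livers, and their interactions were -1.61 ± 0.27 and -1.57 ± 0.33 (SE).

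MHC class I presentation, by which all cells show cytosolic peptides to killer T cells, had a smaller negative interaction. The median over 20 tested genes was -0.47, with 13 negative and 0 positive at an unadjusted p under 0.05 and 7 called by DESeq2. Its 3 leading members were all subunits of the immunoproteasome, the interferon-induced form of the protease that makes these peptides. Psmb9 (chr17:34181987-34187764) measured 24.7 and 22.0 CPM in the NTC-Veh livers, 32.6 and 41.4 CPM in the sgBap1-Veh livers, 26.1, 23.2 and 26.5 CPM in the NTC-CCl4 livers and 16.6, 16.5 and 19.7 CPM in the sgBap1-CCl4 livers. The sgBap1-CCl4 livers were the lowest and the sgBap1-Veh livers the highest of the 4 groups, with no overlap. Psmb9 fell in sgBap1 livers by 1.07 (adjusted p = 5.01e-05), and its response in NTC livers was 0.11 (adjusted p = 0.477; 0.59 by library size alone, adjusted p = 0.00138), giving an interaction of -1.19 ± 0.18 (SE, adjusted p = 0.0694, DESeq2 2e-05). Psmb8 rose by 0.56 in NTC livers and fell by 0.30 in sgBap1 livers, the second of which turned to 0.18 upward by library size alone (adjusted p = 0.155). Psmb10 had an interaction of -0.60 ± 0.13. Exons of Psmb9 overlap those of Tap1 on the other strand, and exons of H2-DMa those of Brd2. The same holds for Ciita and Dexi, Srebf1 and Rai1, Csf1r and Hmgxb3, and Foxo1 and Gm20402. Not every such overlap of a named gene is given. The strand setting of the counting is not given in the sources used here, so reads of such pairs may not be separated.

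Interferon-gamma GTPases had the most negative median of the lists shown. These guanylate-binding proteins and immunity-related GTPases attack the membranes around intracellular microbes and are textbook targets of interferon-gamma. Over 19 tested genes the median response was 0.50 in NTC and -0.74 in sgBap1 livers (0.98 and -0.27 by library size alone), and the median interaction was -1.46. All 19 had a negative interaction, 14 at an unadjusted p under 0.05, and DESeq2 called 11. The list's level in single livers, as the median log2 change from the NTC-Veh mean, was 0.19 and -0.19 in NTC-Veh, 0.75 and 1.06 in sgBap1-Veh, 0.65, -0.11 and 0.79 in NTC-CCl4 and 0.01, -0.13 and 0.30 in sgBap1-CCl4 livers. The sgBap1-Veh livers lay above the sgBap1-CCl4 livers, and NTC-CCl4 replicate 2 lay among the NTC-Veh livers. Gbp2b (chr3:142594847-142619179) measured 2.7 and 1.66 CPM in the NTC-Veh livers, 9.88 and 10.4 CPM in the sgBap1-Veh livers, 0.725, 0.582 and 1.51 CPM in the NTC-CCl4 livers and 0.238, 0.496 and 0.531 CPM in the sgBap1-CCl4 livers. It was highest by far in the sgBap1-Veh livers, and CCl4 lowered it in both genotypes, by 1.26 in NTC (not passing by library size alone, adjusted p = 0.109) and by 4.59 in sgBap1 livers. The interaction of Gbp2b was -3.33 ± 0.56 (SE, adjusted p = 0.0694, DESeq2 2.36e-05). Gbp9 measured 8.63 and 7.59 CPM in the NTC-Veh livers, 13.6 and 15.8 CPM in the sgBap1-Veh livers, 27.5, 20.2 and 23.8 CPM in the NTC-CCl4 livers and 17.0, 15.1 and 18.4 CPM in the sgBap1-CCl4 livers. It rose in NTC livers (1.55, adjusted p = 1.93e-05), and its response in sgBap1 livers was 0.20 (adjusted p = 0.271; 0.67 by library size alone, adjusted p = 0.00126). Gbp4 had an interaction of -1.67 ± 0.29 and Gbp2, chosen after its values were seen, of -1.93 ± 0.40. Gm1966, a gene model with 17.5% of its 50-base stretches shared with Gvin1 and related copies, had -1.98 ± 0.30, and part of its reads may belong to them. Exons of Gbp4 and Gbp9 overlap each other on the same strand.

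Cxcl9, a ligand that draws activated T cells and is induced by interferon-gamma, measured 11.3 and 6.37 CPM in the NTC-Veh livers, 33.2 and 45.9 CPM in the sgBap1-Veh livers, 27.9, 23.5 and 52.2 CPM in the NTC-CCl4 livers and 15.8, 14.9 and 20.1 CPM in the sgBap1-CCl4 livers. The NTC-Veh livers were the lowest and the sgBap1-CCl4 livers came next. It rose by 1.97 in NTC livers (adjusted p = 0.00337) and fell by 1.22 in sgBap1 livers (adjusted p = 0.0193; 0.0880 by library size alone), with an interaction of -3.19 ± 0.54 (SE, adjusted p = 0.0800, DESeq2 4.52e-08). Cxcl10, which binds the same receptor, and Cxcl11 had interactions of -1.65 ± 0.51 and -1.11 ± 0.22. Cxcl11 is annotated as a polymorphic pseudogene, so its RNA need not stand for a ligand. Exons of Cxcl10 overlap those of Art3, and exons of Cxcl11 those of Gm2673, on the other strand. Of the 28 chemokine ligands tested (of 30 listed), 4 were negative and 0 positive at an unadjusted p under 0.05, and the list's median of -0.46 became -0.18 without NTC-Veh replicate 2 and -0.97 without NTC-Veh replicate 1.

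In the wider list of interferon-stimulated genes, 34 of 40 rose in NTC and 18 in sgBap1 livers (39 and 35 by library size alone). The median response was 1.03 in NTC and 0.46 in sgBap1 livers, and the median interaction -0.61. The interaction was negative for 26 and positive for 0 at an unadjusted p under 0.05, and DESeq2 called 12. The count of 26 was 12 without sgBap1-Veh replicate 2, 15 without NTC-Veh replicate 2, 17 without NTC-CCl4 replicate 1 and 18 without sgBap1-CCl4 replicate 2. Samhd1, which degrades nucleotides and so limits viruses, rose by 1.05 and 0.36 in the 2 genotypes and had an interaction of -0.70 ± 0.12. Oas1a, a sensor of double-stranded RNA, rose by 2.37 in NTC and 1.47 in sgBap1 livers. Of its 50-base stretches 57.6% are shared with Oas1g and Oas1b, so the 3 genes' reads may be split among them.

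The promoters of these genes were searched for short motifs because many of their members moved together. Windows from 250 bases before to 50 after the RefSeq start (GRCm38.p6) were at hand for 11950 of the 17015 tested genes. The interferon response motif, read as 2 copies of GAAA with 2 bases of any kind between them on either strand, was found in 3.23% of all windows, in 10 of 11 windows of interferon-gamma GTPases and in 12 of 27 of interferon-stimulated genes. It was found in 7.69% of the 858 windows of genes with a negative interaction at an unadjusted p under 0.05, in 6.08% of 822 once the class I, interferon-stimulated and GTPase lists were set aside, and in 2.73% of the 440 windows of positive genes. The STAT motif TTCNNNGAA was in 7.11% of all windows, 6 of 11 of the GTPases, 8.16% of the negative and 5% of the positive genes. For MHC class II genes, 1 of 13 windows held each motif. The sequences below are the 250 bases before the start, 5′ to 3′ on the gene's strand, with the motif in capitals. Gbp2b is shown as the list's most negative member (chr3:142594597-142594846, + strand; the interferon response motif on the opposite strand), Oas1a as an interferon-stimulated gene with overlapping copies beside its start (chr5:120907526-120907775, - strand; 2 matches) and Irf8 for paired STAT motifs (chr8:120736108-120736357, + strand).
Gbp2b: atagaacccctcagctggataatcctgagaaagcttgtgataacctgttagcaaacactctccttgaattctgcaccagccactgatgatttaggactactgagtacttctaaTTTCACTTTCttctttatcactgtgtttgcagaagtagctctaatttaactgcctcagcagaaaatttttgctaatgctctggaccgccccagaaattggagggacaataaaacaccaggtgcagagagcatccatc
Oas1a: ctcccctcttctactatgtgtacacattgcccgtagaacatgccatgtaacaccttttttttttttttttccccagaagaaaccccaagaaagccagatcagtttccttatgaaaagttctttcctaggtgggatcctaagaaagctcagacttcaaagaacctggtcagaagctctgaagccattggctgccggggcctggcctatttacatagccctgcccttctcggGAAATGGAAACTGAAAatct
Irf8: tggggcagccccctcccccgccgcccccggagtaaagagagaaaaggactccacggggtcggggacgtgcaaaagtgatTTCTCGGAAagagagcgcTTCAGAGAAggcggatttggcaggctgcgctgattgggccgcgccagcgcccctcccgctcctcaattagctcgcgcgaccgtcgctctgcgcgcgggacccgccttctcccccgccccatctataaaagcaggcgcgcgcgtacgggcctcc
A match describes the letters alone, and binding was not measured in these livers.

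Markers shared by leukocytes rose with CCl4 in both genotypes, with smaller responses in sgBap1 livers. In the list of leukocyte signalling, the receptors, adaptors and phagocyte oxidase parts shared by blood-derived cells, all 40 genes rose in NTC and 38 rose in sgBap1 livers. The median response was 2.27 in NTC and 1.41 in sgBap1 livers. All 40 interactions were below 0, 36 at an unadjusted p under 0.05, with a median of -0.91, and DESeq2 called 15. The count of 36 was 20 without NTC-Veh replicate 2 and 19 without sgBap1-Veh replicate 1. Ptprc, which encodes the pan-leukocyte antigen CD45, measured 14.9 and 9.98 CPM in the NTC-Veh livers, 26.2 and 25.3 CPM in the sgBap1-Veh livers, 48.5, 46.8 and 57.7 CPM in the NTC-CCl4 livers and 42.7, 50.7 and 47.6 CPM in the sgBap1-CCl4 livers. The CCl4 groups overlapped and the vehicle groups did not. Its response was 2.04 in NTC and 0.87 in sgBap1 livers, both passing the test, and the interaction was -1.17 ± 0.22 (SE, adjusted p = 0.0835, DESeq2 0.000494). Ms4a6c (chr19:11469366-11482192), a membrane protein gene of macrophages and the negative gene with the smallest p, measured 2.31 and 2.66 CPM in the NTC-Veh livers, 6.06 and 7.11 CPM in the sgBap1-Veh livers, 20.6, 17.9 and 19.4 CPM in the NTC-CCl4 livers and 19.4, 21.6 and 18.9 CPM in the sgBap1-CCl4 livers. It rose by 2.96 and 1.60, an interaction of -1.35 ± 0.18 (SE, adjusted p = 0.0694, DESeq2 2.54e-06), and reached the same range with CCl4 in both genotypes. Of the 50-base stretches of Ms4a6c 10.5% are shared, chiefly with Ms4a6b, and its exons overlap those of BE692007 on the other strand. Arhgap30 and Fyb, the second an adaptor of T cells and myeloid cells, had interactions of -1.25 ± 0.19 and -1.06 ± 0.19. In bulk liver RNA, fewer cells of a type and less RNA per cell cannot be told apart, here and for every cell marker below.

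Marker lists of single cell types differed in how far they took part. The list of resident Kupffer cell markers, named for the liver's own macrophages, also holds genes that other macrophages express, such as Csf1r and Cd68. It had a median response of 1.31 in NTC and 0.16 in sgBap1 livers (1.79 and 0.63 by library size alone). At an unadjusted p under 0.05 16 of 21 were negative, 10 were called by DESeq2, and 10 were negative at that level without NTC-Veh replicate 2 or without sgBap1-Veh replicate 1. Csf1r, the receptor for macrophage colony-stimulating factor, measured 35.6 and 30.4 CPM in the NTC-Veh livers, 80.8 and 56.5 CPM in the sgBap1-Veh livers, 84.7, 99.4 and 107 CPM in the NTC-CCl4 livers and 87.5, 109 and 91.6 CPM in the sgBap1-CCl4 livers. It rose in both genotypes, by 1.56 and 0.49. C1qa, the first component of the classical complement pathway, and Sirpa, an inhibitory receptor of phagocytes, had interactions of -1.18 ± 0.30 and -0.80 ± 0.17. Clec4f, the most restricted Kupffer marker and chosen after its values were seen, measured 88.8 and 61.5 CPM in the NTC-Veh livers, 169.8 and 116 CPM in the sgBap1-Veh livers, 60.0, 51.0 and 78.7 CPM in the NTC-CCl4 livers and 47.1, 63.0 and 65.4 CPM in the sgBap1-CCl4 livers. It fell in sgBap1 livers by 1.29 (adjusted p = 0.00155), and its response in NTC livers was -0.25 (adjusted p = 0.418; 0.24 by library size alone, adjusted p = 0.437). Clec4f thus did not share the rise of the list's median in NTC livers, and that median need not stand for resident cells alone. Of 24 markers of recruited monocytes and macrophages, 23 rose in NTC and 23 in sgBap1 livers (median 3.55 and 3.20), with 6 interactions negative and 3 positive. Ccr2, the receptor by which monocytes leave the marrow, rose by 4.04 and 3.25, with an interaction of -0.79 ± 0.18. Spp1, osteopontin, went the other way (chosen after its values were seen). It rose by 2.27 in NTC and 2.99 in sgBap1 livers, an interaction of 0.72 ± 0.23 (SE, adjusted p = 0.272).

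Lymphocyte markers had low levels. Of the T and NK cell markers 12 rose in NTC and 0 in sgBap1 livers, where 3 fell. By library size alone 22 rose in NTC, and 5 rose and 2 fell in sgBap1 livers. T and NK cell markers had a median response of 0.81 in NTC and -0.37 in sgBap1 livers (0.10 by library size alone), with 11 of 31 tested genes (of 32 listed) negative at an unadjusted p under 0.05 and 1 called by DESeq2. The count of 11 was 19 without NTC-Veh replicate 1, 3 without NTC-Veh replicate 2, 4 without sgBap1-Veh replicate 1 and 6 without sgBap1-CCl4 replicate 1. The median interaction of -1.16 became -0.76 without NTC-Veh replicate 2 and -1.85 without NTC-Veh replicate 1. Klrk1, an activating receptor of NK and killer T cells, measured 1.63 and 1.22 CPM in the NTC-Veh livers, 2.96 and 3.63 CPM in the sgBap1-Veh livers, 2.26, 2.18 and 2.19 CPM in the NTC-CCl4 livers and 1.31, 2.16 and 2.64 CPM in the sgBap1-CCl4 livers. Cd8a, chosen after its values were seen, measured 0.572 and 0.249 CPM in the NTC-Veh livers, 1.32 and 1.12 CPM in the sgBap1-Veh livers, 1.13, 0.977 and 1.98 CPM in the NTC-CCl4 livers and 0.817, 1.44 and 1.30 CPM in the sgBap1-CCl4 livers. The NTC-Veh livers were the lowest for Cd8a and overlapped with the sgBap1-CCl4 livers for Klrk1. B cell and plasma cell markers had a median interaction of -1.09 (-0.73 to -1.61 with each mouse left out), with 12 of 21 negative (3 without NTC-Veh replicate 2 or sgBap1-Veh replicate 1, and 8 without sgBap1-CCl4 replicate 2) and 3 called by DESeq2. Cd72, an inhibitory receptor of B cells, had -1.17 ± 0.21, but its exons overlap those of Tesk1 on the other strand. Ighm, the heavy chain of IgM, had -1.78 ± 0.50. Dendritic cell markers had a median of -0.48 with 6 of 18 negative (2 without sgBap1-Veh replicate 1), among them Irf8 (-0.89 ± 0.20), a transcription factor that these cells need. Of neutrophil markers 16 of 20 were tested, and 0 were negative or positive at an unadjusted p under 0.05.

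The summed level of these markers was compared between the groups. The Kupffer list, with all 21 in the table and genes shared with other macrophages included, summed to 749.8 to 942 CPM in the NTC-Veh group. In the sgBap1-Veh group it summed to 1126 to 1429 CPM. With CCl4 the sums were 1441 to 2019.8 CPM for NTC and 1294 to 1670.3 CPM for sgBap1. T and NK cell markers summed to 19.0 to 39.7, 55.5 to 59.8, 36.0 to 50.4 and 31.3 to 42.8 CPM, with the groups in the order just used, and B cell markers to 27.5 to 42.6, 58.0 to 85.9, 58.5 to 92.2 and 63.0 to 68.1 CPM. Dendritic cell markers summed to 140.1 to 173, 206 to 239, 263 to 306 and 288 to 309 CPM. In each of these 4 lists every sgBap1-Veh liver was above every NTC-Veh liver. In sum, recruited monocyte and macrophage markers went the other way, with 352 to 353 CPM in the NTC-Veh and 284 to 348 CPM in the sgBap1-Veh livers. By the median log2 change over the list they did not, with -0.01 and 0.01 in the NTC-Veh and 0.51 and 0.62 in the sgBap1-Veh livers. Neutrophil markers overlapped in sum, with 7.09 to 12.9 and 11.8 to 14.9 CPM. In these 6 lists no marker was at 0 in all mice. Their part in the results on MHC class II, class I and interferon genes was not tested.

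**Figure D2:**
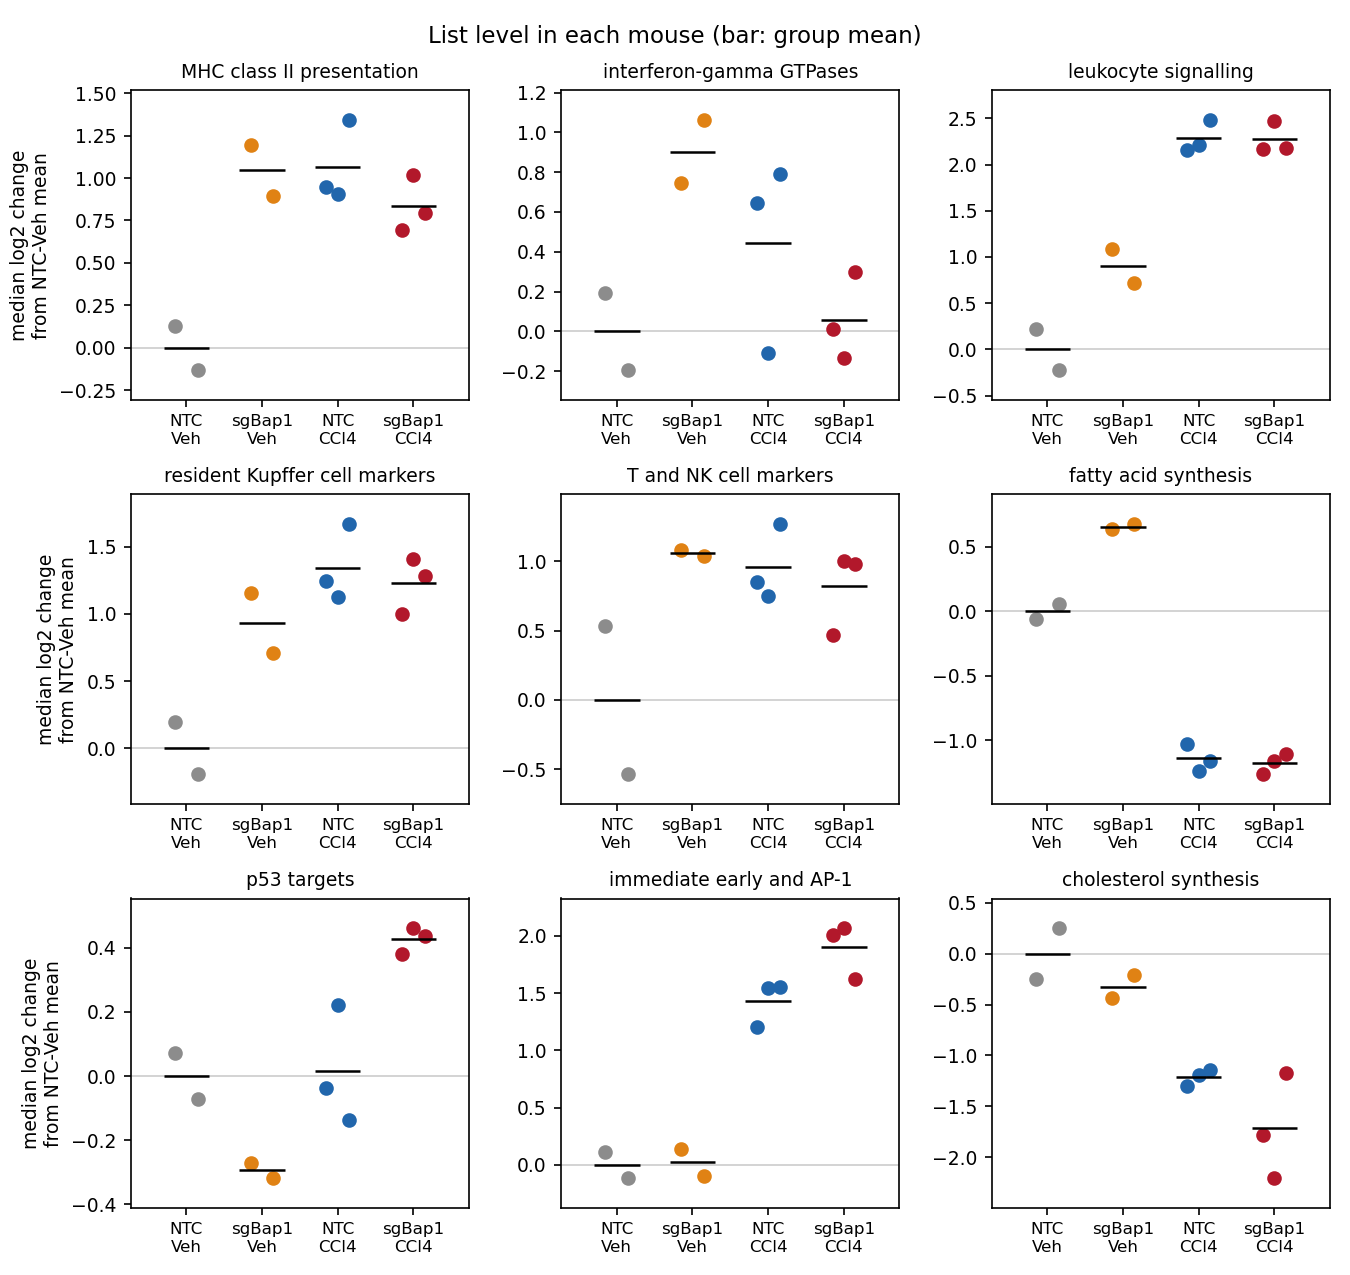
Level of 9 lists in each mouse (points), as the median over the list of the log2 change from the NTC-Veh mean (y axis, scales differ), by group on the x axis; the bar is the group mean. For MHC class II the NTC-Veh livers (0.13 and -0.13) stand below the other groups, and for p53 targets the sgBap1-CCl4 livers (0.38 to 0.46) stand above them.

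Innate sensors took part as well. In the list of inflammasome and interleukin-1 genes, 12 of 21 were negative and 1 positive at an unadjusted p under 0.05, with a median interaction of -0.77. Aim2, the inflammasome's sensor of cytosolic DNA, measured 1.52 and 1.58 CPM in the NTC-Veh livers, 2.80 and 3.26 CPM in the sgBap1-Veh livers, 5.07, 3.98 and 4.79 CPM in the NTC-CCl4 livers and 3.42, 3.49 and 3.59 CPM in the sgBap1-CCl4 livers. It rose in NTC livers by 1.57 (adjusted p = 4.57e-05), and its response in sgBap1 livers was 0.22 (adjusted p = 0.290; 0.70 by library size alone, adjusted p = 0.00628). Casp1, the protease that matures interleukin-1 beta and chosen after its values were seen, had an interaction of -1.22 ± 0.27. Naip5 and Naip6, sensors of bacterial flagellin, had -0.77 ± 0.15 and -1.08 ± 0.21, with 36.8% and 21.5% of their 50-base stretches shared among the Naip genes. The exception was Il1r1, the interleukin-1 receptor (chosen after its values were seen), which rose in sgBap1 livers by 1.48 (adjusted p = 0.000978) and had a response of 0.37 in NTC livers (adjusted p = 0.227; 0.86 by library size alone, adjusted p = 0.0215). In Toll-like receptor signalling, 9 of 25 genes were negative and 0 positive. Tlr1, which pairs with Tlr2 to bind bacterial lipopeptides, measured 1.33 and 0.942 CPM in the NTC-Veh livers, 3.12 and 3.07 CPM in the sgBap1-Veh livers, 11.6, 12.9 and 13.9 CPM in the NTC-CCl4 livers and 12.7, 13.3 and 12.8 CPM in the sgBap1-CCl4 livers. It rose by 3.49 in NTC and 2.06 in sgBap1 livers, an interaction of -1.42 ± 0.22 (SE, adjusted p = 0.0694), and 15.4% of its stretches are shared, chiefly with Tlr6. Tlr9, a receptor for bacterial DNA in endosomes, had -2.11 ± 0.47.

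Genes of fatty acid synthesis fell with CCl4 in both genotypes, with larger falls in sgBap1 livers. The median response of the 26 genes was -1.06 in NTC and -1.89 in sgBap1 livers, where 19 and 24 genes fell (medians -0.59 and -1.42, with 13 and 22 lower, by library size alone). The interaction was negative for 15 and positive for 1 at an unadjusted p under 0.05, with a median of -0.71, and DESeq2 called 10 negative and 1 positive. Acly (chr11:100476353-100528000), the citrate lyase that supplies cytosolic acetyl-CoA, measured 341 and 457 CPM in the NTC-Veh livers, 947 and 994 CPM in the sgBap1-Veh livers, 241, 215 and 243 CPM in the NTC-CCl4 livers and 220.0, 227 and 231 CPM in the sgBap1-CCl4 livers. The sgBap1-Veh livers were the highest, and the 2 CCl4 groups overlapped. Acly fell by 0.78 in NTC livers (adjusted p = 0.000566; 0.0858 by library size alone) and by 2.10 in sgBap1 livers (adjusted p = 1.48e-06), an interaction of -1.32 ± 0.19 (SE, adjusted p = 0.0694, DESeq2 4.59e-09). Srebf1, the transcription factor that drives the pathway after feeding, measured 350.0 and 340.2 CPM in the NTC-Veh livers, 627 and 665 CPM in the sgBap1-Veh livers, 199, 142 and 152 CPM in the NTC-CCl4 livers and 159, 137 and 154 CPM in the sgBap1-CCl4 livers. It had the same order, with an interaction of -1.04 ± 0.20. Gpam, which starts triglyceride assembly, had -1.06 ± 0.20. Elovl6, Scd1, Pnpla3 and Lpin1 were chosen after their values were seen. Elovl6, which lengthens fatty acids, had -1.58 ± 0.39. Scd1, the stearoyl-CoA desaturase, measured 3982 and 2722 CPM in the NTC-Veh livers, 10072 and 8925 CPM in the sgBap1-Veh livers, 3905, 2669.9 and 3402 CPM in the NTC-CCl4 livers and 2788, 4644 and 3661 CPM in the sgBap1-CCl4 livers. It fell in sgBap1 livers by 1.36 (adjusted p = 0.00104) and had a response of -0.01 in NTC livers (adjusted p = 0.974). Pnpla3, a lipase-like protein of lipid droplets, had -2.79 ± 0.81. Lpin1, a phosphatidate phosphatase, was the list's positive gene. It fell by 3.03 in NTC and 1.58 in sgBap1 livers, with an interaction of 1.45 ± 0.40 (SE, adjusted p = 0.224, DESeq2 0.0113). Cholesterol synthesis, run by the related factor SREBP2, had a median interaction of -0.03 with 0 negative and 0 positive of 25 (6 negative without sgBap1-CCl4 replicate 3). Without sgBap1-CCl4 replicate 2 its median was 0.16, with 1 positive gene.

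Genes of glycolysis and of the insulin response had interactions in either direction. At an unadjusted p under 0.05, 9.52% of the list were negative and 23.8% positive, against 6.78% and 3.59% of all genes. Pklr, liver pyruvate kinase, fell in both genotypes and had an interaction of -1.23 ± 0.37. Foxo1, the transcription factor that insulin switches off, measured 54.3 and 42.1 CPM in the NTC-Veh livers, 43.7 and 46.7 CPM in the sgBap1-Veh livers, 33, 26.8 and 27.1 CPM in the NTC-CCl4 livers and 51.4, 51.8 and 54.8 CPM in the sgBap1-CCl4 livers. The NTC-CCl4 livers were the lowest of the 4 groups. Foxo1 fell in NTC livers by 0.73 (adjusted p = 0.000601; 0.0788 by library size alone), and its response in sgBap1 livers was 0.22 (adjusted p = 0.156; 0.70 by library size alone, adjusted p = 0.000416), an interaction of 0.96 ± 0.18 (SE, adjusted p = 0.0800, DESeq2 0.00067). Igfbp1, a target of Foxo1 that binds insulin-like growth factors, rose by 1.52 in NTC and 2.91 in sgBap1 livers. Over the whole list of glucose metabolism and insulin response, 2 genes were negative and 5 positive of 21 (7 negative without sgBap1-CCl4 replicate 3, and 2 positive without sgBap1-Veh replicate 2).

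Mitosis genes had the highest median response of the lists in both genotypes. The median response of 30 mitosis genes was 5.04 in NTC and 4.37 in sgBap1 livers, and all 30 rose in NTC and 30 in sgBap1 livers. The median interaction was -0.62, with 4 negative at an unadjusted p under 0.05 and 0 called by DESeq2. The count of 4 was 0 without NTC-Veh replicate 2 or sgBap1-Veh replicate 1, 1 without NTC-CCl4 replicate 3 or sgBap1-CCl4 replicate 1 or 3, 8 without sgBap1-CCl4 replicate 2 (median -0.81) and 13 without NTC-CCl4 replicate 2. Of 32 DNA replication genes 7 were negative, with a median of -0.40 (-0.19 without sgBap1-Veh replicate 1), and DESeq2 called 2. The count of negative replication genes was 3 to 4 without NTC-Veh replicate 2, sgBap1-Veh replicate 1, NTC-CCl4 replicate 1 or 3 or sgBap1-CCl4 replicate 1, and 14 without sgBap1-Veh replicate 2. Mcm5, part of the helicase that opens DNA for replication, measured 2.15 and 1.55 CPM in the NTC-Veh livers, 4.68 and 3.41 CPM in the sgBap1-Veh livers, 43.8, 32.3 and 38.3 CPM in the NTC-CCl4 livers and 35.8, 40.5 and 41.8 CPM in the sgBap1-CCl4 livers. Uhrf1, which restores DNA methylation behind the fork, measured 0.653 and 0.499 CPM in the NTC-Veh livers, 2.21 and 1.09 CPM in the sgBap1-Veh livers, 28.9, 22.1 and 25.5 CPM in the NTC-CCl4 livers and 19.7, 24.9 and 28.9 CPM in the sgBap1-CCl4 livers. Both overlapped between the 2 CCl4 groups and were higher in every sgBap1-Veh than in every NTC-Veh liver. Their interactions were -1.09 ± 0.26 and -1.61 ± 0.43, with DESeq2 adjusted p of 0.0129 and 0.0113, and 15.4% of the stretches of Uhrf1 are shared with pseudogenes. Cdk1, the kinase that starts mitosis, rose by 5.54 and 4.42 and had an interaction of -1.12 ± 0.40 (SE, adjusted p = 0.360). With each mouse left out the interaction was -1.43 to -0.65 for Cdk1 and -1.99 to -0.96 for Uhrf1.

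**Figure D3:**
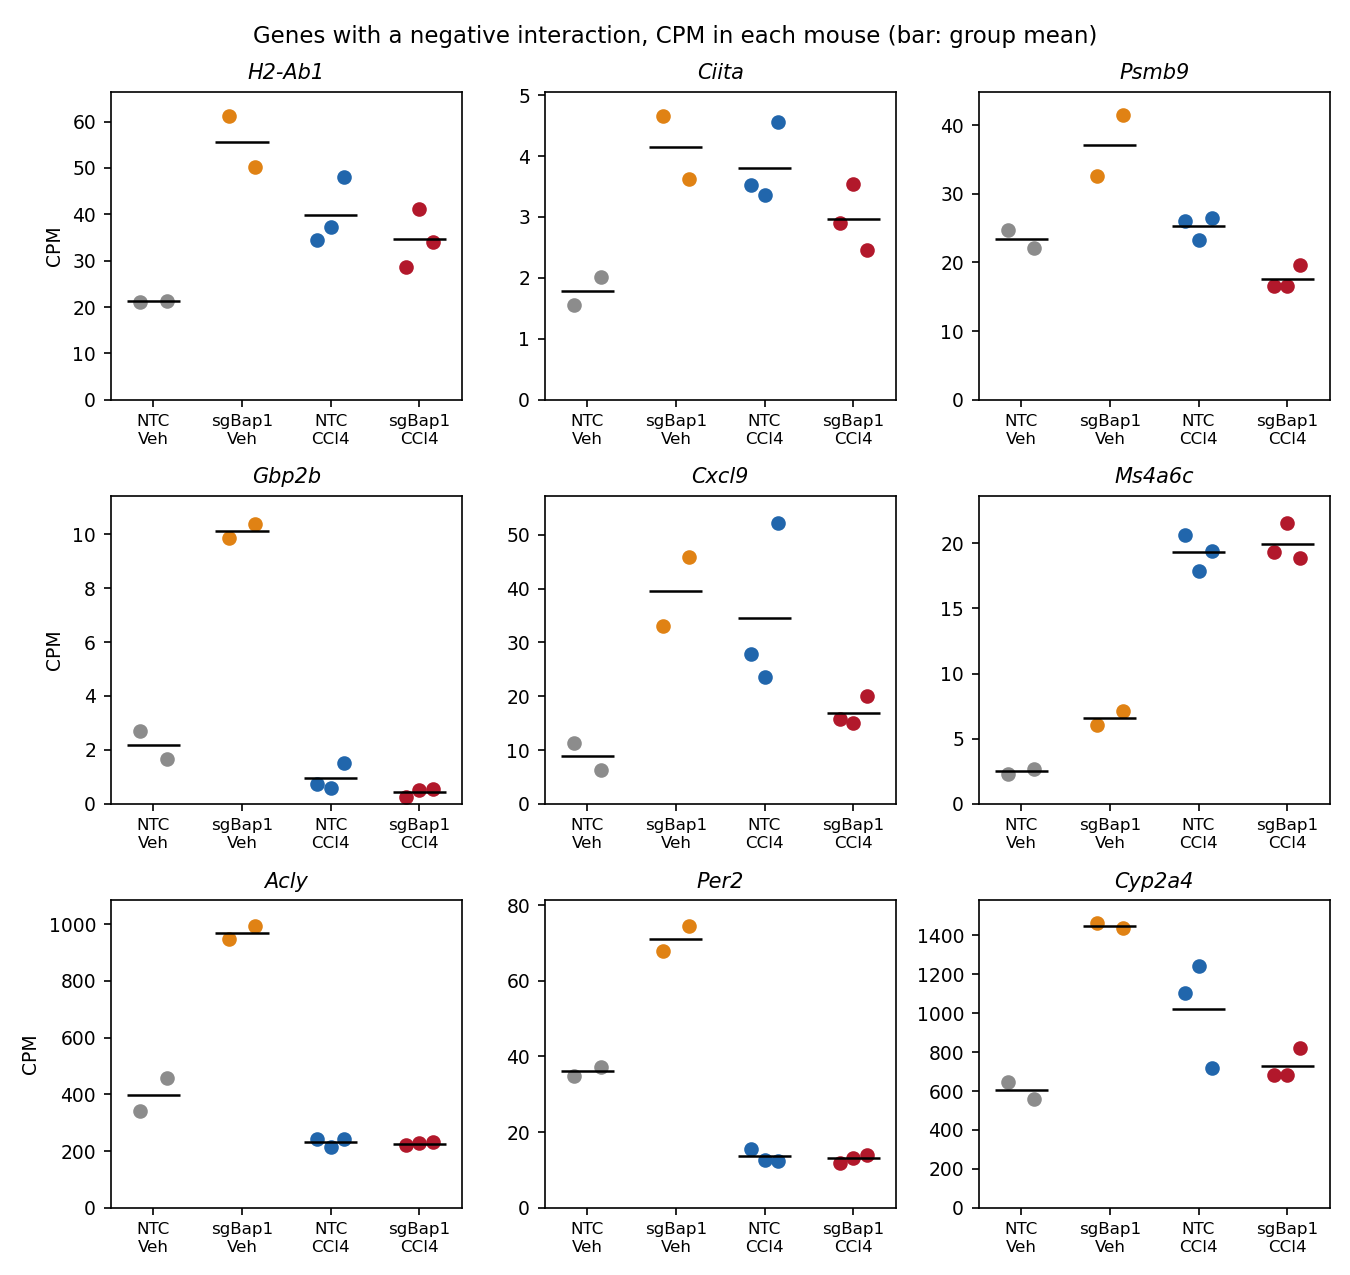
CPM (y axis, from 0, scales differ) of 9 genes with a negative interaction in each mouse (points) by group (x axis), with the group mean as a bar. In Ms4a6c, Acly and Per2 the CCl4 groups coincide and the vehicle groups are apart, whereas in Psmb9 the sgBap1-CCl4 livers (16.5 to 19.7 CPM) lie below the NTC-CCl4 livers.

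Targets of p53, which stop the cell cycle, repair DNA or start apoptosis after stress, had the most positive median of the lists in the plot of medians. Over 32 genes the median response was 0.01 in NTC and 0.88 in sgBap1 livers (0.49 and 1.35 by library size alone), and the median interaction 0.51 (0.33 without NTC-Veh replicate 1). The interaction was positive for 15 and negative for 0 at an unadjusted p under 0.05, and DESeq2 called 11. The list's level was 0.07 and -0.07 in NTC-Veh, -0.27 and -0.32 in sgBap1-Veh, -0.04, 0.22 and -0.14 in NTC-CCl4 and 0.38, 0.46 and 0.44 in sgBap1-CCl4 livers, so the sgBap1 livers were the lowest with vehicle and the highest with CCl4. Mdm2 (chr10:117688875-117710758), the ubiquitin ligase that degrades p53 and is itself a target, measured 50.8 and 46.2 CPM in the NTC-Veh livers, 36.6 and 39.7 CPM in the sgBap1-Veh livers, 64.0, 62.1 and 63.1 CPM in the NTC-CCl4 livers and 85.8, 82.8 and 75.8 CPM in the sgBap1-CCl4 livers. It rose by 0.38 in NTC and 1.10 in sgBap1 livers, an interaction of 0.72 ± 0.12 (SE, adjusted p = 0.0694, DESeq2 8.57e-05). Cdkn1a, the cyclin-dependent kinase inhibitor p21 and chosen after its values were seen, measured 46.5 and 21.9 CPM in the NTC-Veh livers, 10.4 and 16.5 CPM in the sgBap1-Veh livers, 83.6, 91.0 and 79.9 CPM in the NTC-CCl4 livers and 114, 118 and 112 CPM in the sgBap1-CCl4 livers. It rose by 1.31 and 3.10, an interaction of 1.79 ± 0.41 (SE, adjusted p = 0.143, DESeq2 0.000576). Aen, a nuclease of apoptosis, fell in NTC livers by 0.42, which turned to 0.05 upward by library size alone, and rose in sgBap1 livers by 0.37. Polk, a polymerase that copies damaged DNA, had 0.77 ± 0.15. Phlda3, an inhibitor of the kinase Akt and chosen after its values were seen, had 1.78 ± 0.50 and rose in sgBap1 livers (1.69, adjusted p = 0.00408). Its response in NTC livers was -0.10 (adjusted p = 0.830).

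Of the immediate early genes and members of AP-1, which are switched on within minutes of growth or stress signals, 27 rose in NTC and 30 in sgBap1 livers. The median response of 34 genes was 1.46 in NTC and 1.90 in sgBap1 livers. The median interaction was 0.48 (0.77 without sgBap1-Veh replicate 1 and 0.29 without replicate 2), with 13 positive and 2 negative at an unadjusted p under 0.05, and DESeq2 called 4. There were 8 positive genes without NTC-Veh replicate 1 and 7 without sgBap1-Veh replicate 2. Egr1, a zinc finger factor, measured 27.4 and 19.6 CPM in the NTC-Veh livers, 10.4 and 17.3 CPM in the sgBap1-Veh livers, 80.5, 58.0 and 76.3 CPM in the NTC-CCl4 livers and 161, 114 and 139.7 CPM in the sgBap1-CCl4 livers. Each sgBap1-CCl4 liver was above each NTC-CCl4 liver, and the sgBap1-Veh livers were the lowest. Egr1 rose by 1.61 and 3.32, an interaction of 1.72 ± 0.35 (SE, adjusted p = 0.118, DESeq2 0.000207). Junb, a partner of Fos in AP-1, had 1.12 ± 0.22, but its exons overlap those of Prdx2 on the other strand. Ccn2, a matricellular growth factor, had 1.35 ± 0.32 and Myc, chosen after its values were seen, 1.74 ± 0.50. With each mouse left out the interaction of Myc was 0.94 to 2.25.

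Stress genes outside these lists gave small counts. The positive shares were 16.1% for acute phase, 13.3% for endoplasmic reticulum stress and 15.4% for heat shock genes, against 3.59% of all genes. For the NRF2 list the negative share was 13.3%, against 6.78%. Among acute phase genes 5 of 31 were positive and 2 negative, and the list's median of 0.22 changed sign to -0.12 without NTC-Veh replicate 1. Without sgBap1-CCl4 replicate 2 acute phase genes gave 6 positive and 1 negative, and heat shock and chaperonin genes 2 positive and 1 negative. Mt2 and Mt1, metallothioneins that bind zinc and respond to metals and glucocorticoids, were among the positive genes. Mt2 measured 246 and 125 CPM in the NTC-Veh livers, 70.1 and 100.2 CPM in the sgBap1-Veh livers, 145, 143 and 258 CPM in the NTC-CCl4 livers and 383, 351 and 427 CPM in the sgBap1-CCl4 livers. It rose in sgBap1 livers by 2.19 (adjusted p = 0.000987) and had a response of -0.03 in NTC livers (adjusted p = 0.952). The interactions of Mt2 and Mt1 were 2.21 ± 0.49 and 1.78 ± 0.37, with DESeq2 adjusted p of 0.00012 and 0.000236. Cebpd, a transcription factor of the acute phase, measured 5.72 and 4.85 CPM in the NTC-Veh livers, 4.17 and 4.08 CPM in the sgBap1-Veh livers, 4.03, 5.75 and 3.88 CPM in the NTC-CCl4 livers and 9.25, 12.7 and 8.69 CPM in the sgBap1-CCl4 livers. Among the CCl4 livers it was higher in the sgBap1 group (1.16, adjusted p = 0.0392). Its relative Cebpb fell in NTC livers by 0.83 (adjusted p 0.149 by library size alone) and had an interaction of 1.09 ± 0.29 (SE, adjusted p = 0.202). The exons of Cebpb and Cebpd overlap Tmem189 and Spidr on the other strand. Of 30 genes of endoplasmic reticulum stress 4 were positive, among them Ppp1r15a (0.90 ± 0.26), which restarts translation, and of 26 heat shock and chaperonin genes 4 were positive (1 without NTC-Veh replicate 2). The NRF2 list, of the antioxidant response, had 4 negative of 30 (0 without NTC-Veh replicate 2) and a median of -0.41 (-0.16 without NTC-CCl4 replicate 2), with Hmox1, heme oxygenase, at -0.92 ± 0.32.

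Genes of the circadian clock split by member. Of 19 genes 5 were negative and 3 positive at an unadjusted p under 0.05. Per1 and Per2 encode partner repressors of the clock's activators. Per1 (chr11:69095217-69109960) measured 63.8 and 66.9 CPM in the NTC-Veh livers, 82.7 and 74.0 CPM in the sgBap1-Veh livers, 34.4, 29.2 and 31.5 CPM in the NTC-CCl4 livers and 69.0, 78.3 and 66.1 CPM in the sgBap1-CCl4 livers. It was low in the NTC-CCl4 livers alone, fell by 1.04 in NTC livers (adjusted p = 1.86e-05), and had a response of -0.14 in sgBap1 livers (adjusted p = 0.272; 0.35 by library size alone, adjusted p = 0.0475). Per2 (chr1:91415982-91459324) measured 34.9 and 37.2 CPM in the NTC-Veh livers, 67.8 and 74.4 CPM in the sgBap1-Veh livers, 15.5, 12.7 and 12.4 CPM in the NTC-CCl4 livers and 11.9, 13.2 and 13.9 CPM in the sgBap1-CCl4 livers. It was high in the sgBap1-Veh livers alone and fell by 1.41 in NTC and 2.45 in sgBap1 livers. The interactions were 0.90 ± 0.15 for Per1 (SE, adjusted p = 0.0694, DESeq2 4.52e-05) and -1.04 ± 0.16 for Per2 (adjusted p = 0.0694, DESeq2 2.96e-05). Bhlhe40, another repressor of the clock, had -0.77 ± 0.15. The E-box CACGTG, which the clock's activators bind, was in 5 of 16 windows of clock genes and in 9.73% of all windows. The 250 bases before the RefSeq start used for Per1 are shown for the E-box they hold (chr11:69098699-69098948, + strand, GRCm38.p6), in capitals. That start lies inside the span of the gene given above, not at its first base. Times of collection are not given in the sources used here, so their part in these values was not tested.
Per1: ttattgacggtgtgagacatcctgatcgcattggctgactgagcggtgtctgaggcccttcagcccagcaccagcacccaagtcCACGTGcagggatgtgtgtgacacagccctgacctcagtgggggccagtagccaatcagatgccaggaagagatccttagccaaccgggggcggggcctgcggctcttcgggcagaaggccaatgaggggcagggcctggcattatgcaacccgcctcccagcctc

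Of the 12 positive genes with the smallest p, several belong to no list. Tmc7 (chr7:118535841-118584736), of the transmembrane channel-like family, had the smallest p of all genes and measured 5.58 and 4.21 CPM in the NTC-Veh livers, 2.48 and 2.21 CPM in the sgBap1-Veh livers, 6.25, 5.05 and 6.01 CPM in the NTC-CCl4 livers and 10.7, 10.8 and 11.8 CPM in the sgBap1-CCl4 livers. The sgBap1 livers were the lowest with vehicle and the highest with CCl4, and no mice of the genotypes overlapped. Tmc7 rose in sgBap1 livers by 2.24 (adjusted p = 4.41e-06), its response in NTC livers was 0.23 (adjusted p = 0.233; 0.71 by library size alone, adjusted p = 0.00260), and its interaction was 2.00 ± 0.23 (SE, adjusted p = 0.0694, DESeq2 4.59e-09). Pim3, a survival kinase, measured 82.9 and 83.6 CPM in the NTC-Veh livers, 71.3 and 42.6 CPM in the sgBap1-Veh livers, 23.2, 31.1 and 23.3 CPM in the NTC-CCl4 livers and 63.5, 66.1 and 69.2 CPM in the sgBap1-CCl4 livers. It fell by 1.69 in NTC livers (adjusted p = 6.45e-05) and had a response of 0.22 in sgBap1 livers (adjusted p = 0.369; 0.69 by library size alone, adjusted p = 0.0149), an interaction of 1.90 ± 0.28. Ip6k2, an inositol hexakisphosphate kinase, measured 44.0 and 42.9 CPM in the NTC-Veh livers, 40.2 and 36.8 CPM in the sgBap1-Veh livers, 20.7, 17.7 and 23.1 CPM in the NTC-CCl4 livers and 42.6, 33.3 and 43.7 CPM in the sgBap1-CCl4 livers. It resembled Pim3, falling by 1.08 in NTC livers and with an interaction of 1.13 ± 0.19. Avpr1a, the vasopressin receptor of hepatocytes, measured 46.1 and 40.1 CPM in the NTC-Veh livers, 18.4 and 18.1 CPM in the sgBap1-Veh livers, 27.1, 32.2 and 26.6 CPM in the NTC-CCl4 livers and 32.0, 25.3 and 31.6 CPM in the sgBap1-CCl4 livers. It rose in sgBap1 livers by 0.70 and fell in NTC livers by 0.59, the second not passing by library size alone (adjusted p = 0.371), and its interaction was 1.29 ± 0.18. Camk2b, a calcium-dependent kinase, measured 17.4 and 16 CPM in the NTC-Veh livers, 2.96 and 5.31 CPM in the sgBap1-Veh livers, 2.84, 2.10 and 2.55 CPM in the NTC-CCl4 livers and 2.64, 2.86 and 2.34 CPM in the sgBap1-CCl4 livers. It was high in the NTC-Veh livers alone, with an interaction of 2.11 ± 0.32. Sort1, a sorting receptor of the Golgi, had 1.02 ± 0.16, Cpeb2, which controls translation, 1.10 ± 0.19, Dtnb, a dystrobrevin, 0.76 ± 0.13, Cep85l, a centrosomal protein, 0.91 ± 0.16, and the gene model Gm15889 2.08 ± 0.38.

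**Figure D4:**
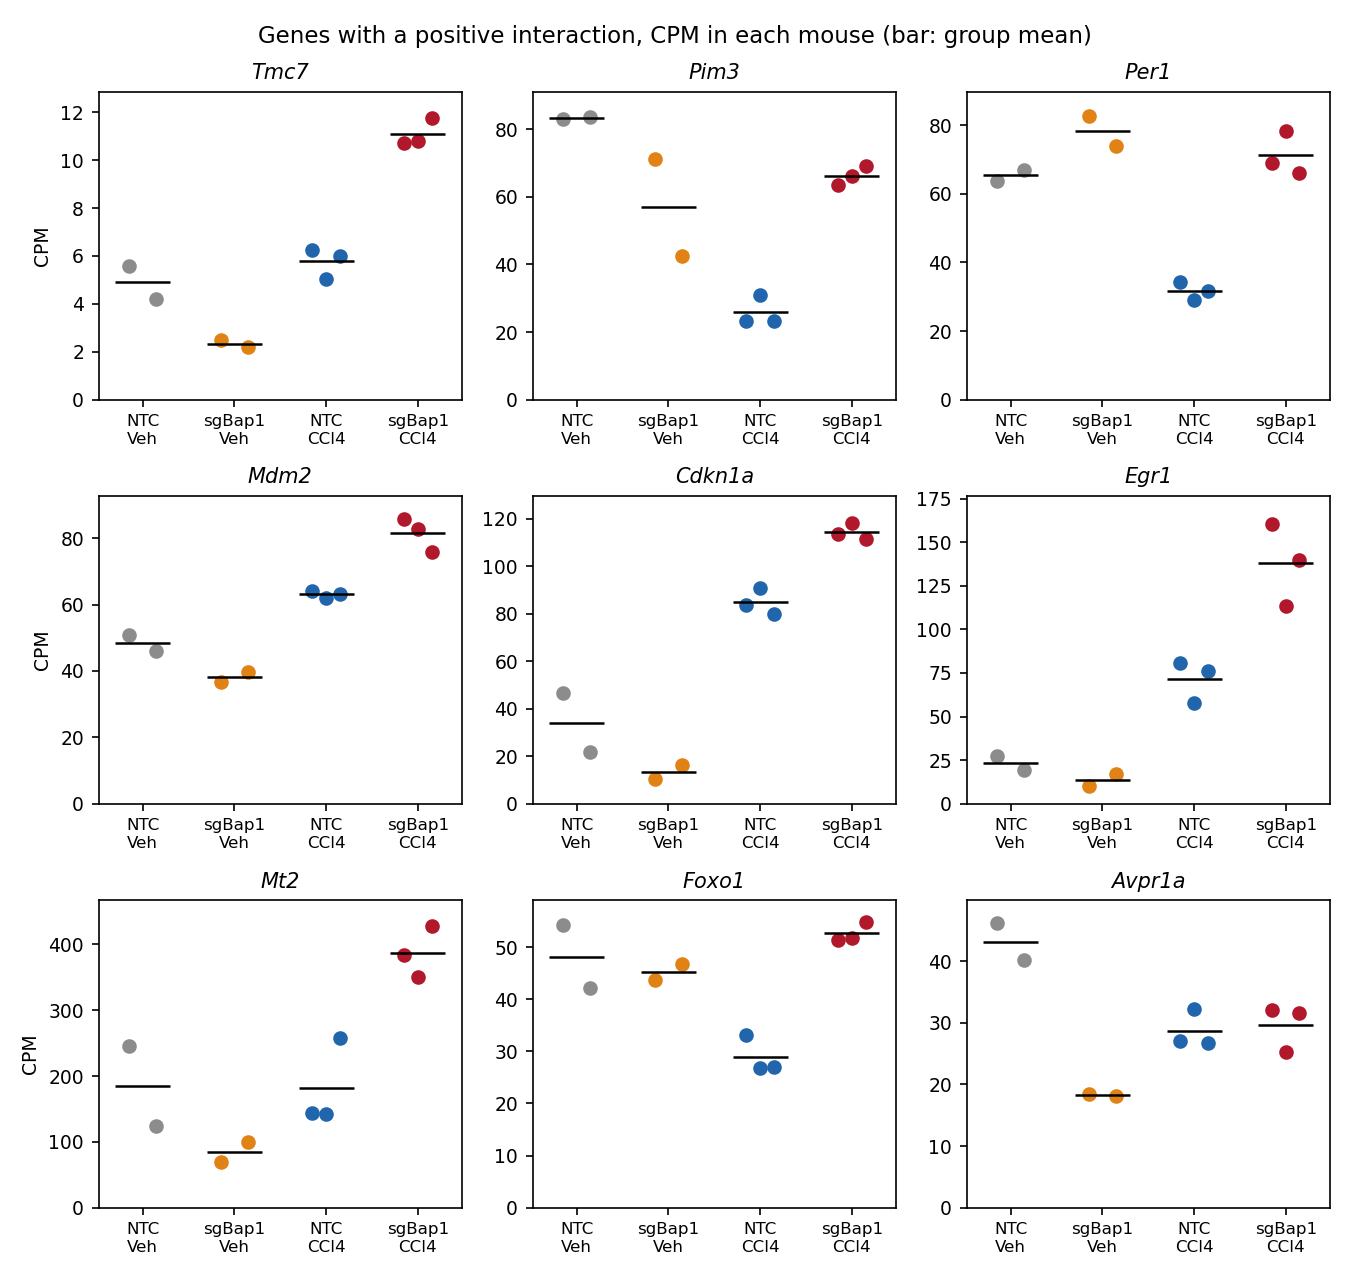
CPM (y axis, from 0, scales differ) of 9 genes with a positive interaction in each mouse (points) by group (x axis), with the group mean as a bar. Pim3, Per1 and Foxo1 are low in the NTC-CCl4 livers, whereas in Avpr1a the sgBap1-Veh livers (18.1 and 18.4 CPM) stand apart.

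Of the 12 leading negative genes, Inmt and P2ry2, like Ms4a6c and Gm1966 above, belong to no list. Inmt, a methyltransferase of small amines, measured 351 and 384 CPM in the NTC-Veh livers, 798 and 712 CPM in the sgBap1-Veh livers, 40.1, 41.5 and 44.3 CPM in the NTC-CCl4 livers and 35.0, 35.9 and 43.9 CPM in the sgBap1-CCl4 livers. It fell by 3.13 in NTC and 4.30 in sgBap1 livers, with an interaction of -1.17 ± 0.17. P2ry2, a receptor for extracellular ATP and UTP, measured 18.2 and 15.4 CPM in the NTC-Veh livers, 21 and 19.8 CPM in the sgBap1-Veh livers, 15.3, 15.6 and 14.3 CPM in the NTC-CCl4 livers and 8.34, 8.40 and 9.54 CPM in the sgBap1-CCl4 livers. It fell in sgBap1 livers by 1.22 (adjusted p = 8.61e-06) and had a response of -0.16 in NTC livers (adjusted p = 0.238; 0.32 by library size alone, adjusted p = 0.0214), and the sgBap1-CCl4 livers stood below all others.

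Lists of hepatocyte metabolism outside lipid synthesis had few interactions at an unadjusted p under 0.05. Cytochrome P450 genes fell in 32 of 34 cases in NTC and 33 in sgBap1 livers (median -1.99 and -2.18), with 3 negative and 1 positive interactions at an unadjusted p under 0.05 (0 negative without NTC-Veh replicate 1 and 10 without sgBap1-CCl4 replicate 3). Urea cycle genes had median responses of -1.99 and -2.21, and 0 negative and 1 positive of 15. For oxidative phosphorylation the counts were 0 and 0 of 76, with a median interaction of -0.03 and single genes from -0.35 to 0.36. The BAP1 and Polycomb complexes gave 0 and 0 of 39 (-0.41 to 0.30). Amino acid catabolism had 6 negative and 0 positive of 36 (2 negative without NTC-Veh replicate 1), complement and coagulation 2 and 0 of 32, fatty acid oxidation 0 and 3 of 30, and cytosolic ribosomal proteins 0 and 2 of 78 (17 positive without NTC-CCl4 replicate 2). Pericentral hepatocyte markers, of the zone that CCl4 kills, had 0 and 2 of 22 and periportal markers 4 and 0 of 22 (0 negative without NTC-Veh replicate 1 or sgBap1-Veh replicate 1). Of the matrix and stellate cell genes 24 rose in NTC and 24 in sgBap1 livers, with 0 negative and 0 positive of 32, and their median of 0.23 was -0.21 without sgBap1-CCl4 replicate 2, the liver with adipocyte markers. Among hepatocyte transcription factors 3 of 23 were positive (Foxo1, Cebpb and Klf15) and 1 negative. Without sgBap1-CCl4 replicate 2 the positive counts were 3 for cytochrome P450 and 5 for fatty acid oxidation genes. The negative counts without it were 2 for periportal markers and 2 for matrix and stellate cell genes.

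Single metabolic genes stood out from these lists. Akr1d1, a reductase of bile acid synthesis, measured 232 and 317 CPM in the NTC-Veh livers, 314 and 289.8 CPM in the sgBap1-Veh livers, 21.5, 20.9 and 20.3 CPM in the NTC-CCl4 livers and 11.4, 8.47 and 7.69 CPM in the sgBap1-CCl4 livers. It fell by 3.71 in NTC and 5.04 in sgBap1 livers, an interaction of -1.32 ± 0.24 (SE, adjusted p = 0.0777, DESeq2 6.35e-05). Cyp2a4, a steroid hydroxylase that is higher in female liver, measured 648 and 558 CPM in the NTC-Veh livers, 1462 and 1437 CPM in the sgBap1-Veh livers, 1106, 1243 and 717 CPM in the NTC-CCl4 livers and 680.4, 683 and 822 CPM in the sgBap1-CCl4 livers. It rose by 0.76 in NTC livers (adjusted p = 0.0118) and fell by 0.99 in sgBap1 livers (adjusted p = 0.00211), an interaction of -1.75 ± 0.30, and both responses also passed by library size alone. Of its 50-base stretches 38.0% are shared with Cyp2a5 and a pseudogene, so its reads may be split. Lepr, the leptin receptor, fell by 1.75 in NTC and 0.52 in sgBap1 livers (the second not passing by library size alone, adjusted p = 0.855), with an interaction of 1.23 ± 0.28. In the list of the growth hormone axis and sex-biased genes 7 were negative and 3 positive of 36. These were 19.4% and 8.33%, against 6.78% and 3.59% of all genes. Acot1, an acyl-CoA thioesterase, had an interaction of 1.80 ± 0.36, but 19.2% of its stretches are shared with Acot2 and its relatives. Lgr5, a Wnt pathway receptor of pericentral hepatocytes, fell by 2.03 in NTC livers and had a response of -0.49 in sgBap1 livers (adjusted p = 0.106).

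By arithmetic the interaction equals the genotype difference with CCl4 minus that with vehicle, and both use the same mice. Choosing genes by the interaction therefore fixes part of the shares below. Of the 1153 negative genes, 1116 (96.8%) were higher in sgBap1 than in NTC livers with vehicle, against 53.4% of all genes, and for 844 (73.2%) the genotype difference was larger in size with vehicle than with CCl4, against 55.0% of all genes. Of the 611 positive genes, 31 (5.07%) were higher in sgBap1 livers with vehicle, and for 372 (60.9%) the difference was larger with vehicle. Of the genes that DESeq2 called, the share larger with vehicle was 82.2% for the 303 negative and 60.0% for the 105 positive. The median genotype difference of MHC class II genes was 1.09 with vehicle and -0.21 with CCl4, that of leukocyte signalling 0.90 and -0.01, and that of fatty acid synthesis 0.63 and -0.12. For interferon-gamma GTPases it was 0.86 and -0.50, and for p53 targets -0.29 and 0.22. Immediate early genes were the reverse case, with 0.10 and 0.44. The genotype comparison itself called 69 genes (0.406%) with vehicle and 56 (0.329%) with CCl4. Of the 12 leading negative genes 8 were called with vehicle alone (among them Ms4a6c, Acly and Per2) and 2 with CCl4 alone (P2ry2 and Psmb8). Of the 12 leading positive genes 3 were called with vehicle alone (Avpr1a, Camk2b and Sort1), 5 with CCl4 alone (Pim3, Per1, Ip6k2, Cep85l and Gm15889) and Tmc7 in both. Each vehicle group had 2 mice, so the spread there rests on few animals.

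**Figure D5:**
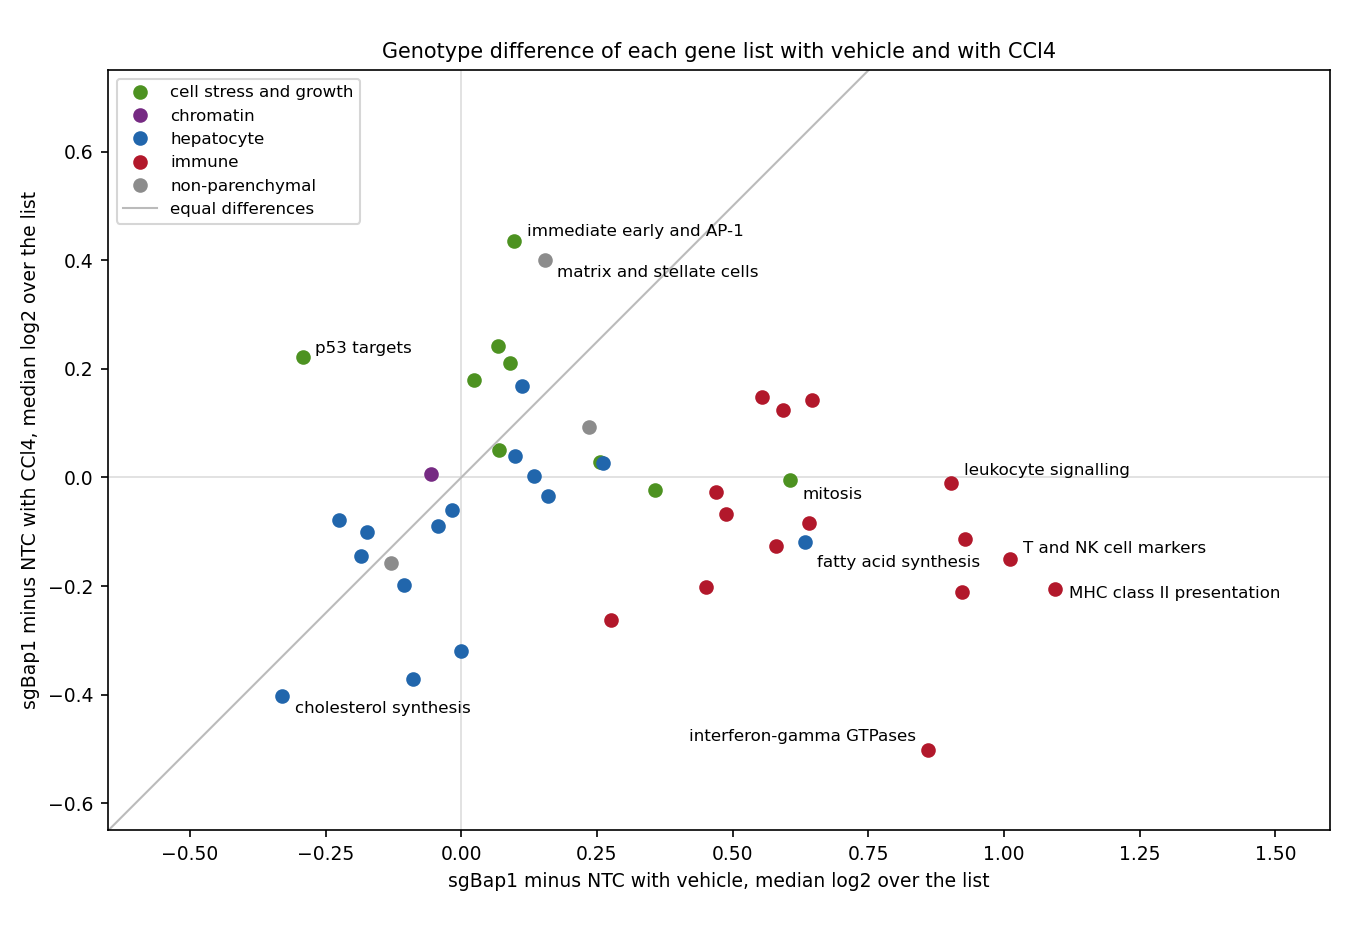
Median genotype difference (log2, sgBap1 minus NTC) of each list with vehicle (x axis) and with CCl4 (y axis), coloured by kind of list, with a line of equal differences. Lists below the line have a lower median difference with CCl4 than with vehicle. MHC class II genes lie at 1.09 and -0.21, fatty acid synthesis at 0.63 and -0.12, and p53 targets at -0.29 and 0.22.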

How the data were processed

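Livers of 10 mice in 4 groups were sequenced with a stranded mRNA kit and paired reads of 50 bases. The authors aligned the reads with STAR 2.7.6a and estimated counts with Salmon 1.4.0 on GRCm38 (mm10, GENCODE vM25). The deposited values are these expected counts per gene symbol, not normalized, of which 9.22% were not whole. They were rounded to whole numbers here. Groups and replicates were taken from the sample labels, and no batch is named there. No statement gives whether mice shared a litter or day.

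Genes were kept with filterByExpr, scaled by TMM and fitted as 4 group means in edgeR 4.0.16 (glmQLFit, robust, R 4.3.3). The interaction and the response in each genotype were tested two-sided by quasi-likelihood, and p-values were adjusted by Benjamini-Hochberg over 17015 genes with a threshold of 0.05. SE is the size of a log2 change divided by the square root of its F statistic. Total counts were 3.30e+07 to 5.22e+07 per liver, and 3 counts equal at most 0.112 CPM, for counting error only. Levels per liver are TMM-scaled CPM, and list levels use a pseudocount of 2 counts, scaled to library size, before log2.

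The members and the lists were chosen with earlier results of these data known, so list counts are descriptions without a test. Named genes are the 12 with the smallest interaction p in each direction (mean of at least 100 counts) and up to 3 genes per list (unadjusted p under 0.05, mean of at least 50 counts). Bap1 was added, as were the adipocyte genes Adipoq and Plin1, which stood apart in 1 liver and are not the list's most counted members. Genes chosen after their values were seen are marked as such. Alternatives were DESeq2 size factors, library size alone, other filters, the replicate number as a block, DESeq2 1.42.0, limma-voom (limma 3.58.1), the quasi-likelihood method of edgeR 3 and each mouse left out. Positions and shared stretches of 50 bases were read from GENCODE vM21 (vM25 itself was not used here). Promoters come from RefSeq, with the first start listed for each gene. Scripts were tested on simulated data. Spatial data were not analysed here, and 1 gene that the naming rule selects is not reported here.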

Additional observations from a re-analysis of the deposited data

Results flagged for a closer look

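In 18 named genes every CCl4 liver lay on one side of every vehicle liver in NTC mice and on the other side in sgBap1 mice. Positions were compared on TMM-scaled CPM. The difference itself, the interaction, was tested with edgeR's quasi-likelihood test and passed the threshold for none of the 18. In 11 genes CCl4 livers were higher in NTC and lower in sgBap1 mice. Their interactions were -1.60 for H2-Ab1, -1.73 for H2-Aa, -1.53 for H2-Eb1, -1.61 for Cd74, -1.57 for Ciita, -0.86 for Psmb8, -1.93 for Gbp2, -3.19 for Cxcl9, -1.33 for Klrk1, -1.78 for Ighm and -1.75 for Cyp2a4. In the others CCl4 livers were lower in NTC and higher in sgBap1 mice, with interactions of 1.29 for Avpr1a, 0.76 for Dtnb, 0.96 for Foxo1, 1.09 for Cebpb, 1.80 for Acot1, 0.80 for Aen and 0.39 for Dnajb1.

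Over all tested genes, 15 with a negative interaction at an unadjusted p under 0.05 were called higher with CCl4 in NTC and lower in sgBap1 livers, and 6 with a positive interaction the reverse. By library size alone 13 of the 15 still had opposite signs and 2 were called in both directions (Xcl1 and Cyp2a4), whereas of the 6 only Avpr1a kept opposite signs and 0 were called.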

How the results depend on the processing

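Interaction calls were 0 with DESeq2 size factors, a mean of at least 10 counts, limma-voom, edgeR 3 and the replicate number as a block, 2 by library size alone (Avpr1a and Tmc7), 34 with no filter beyond 1 count and 408 with DESeq2's Wald test. Without each mouse they were 0 to 7, with 7 without sgBap1-CCl4 replicate 2 (Avpr1a, H2-Ab1, H2-DMa, Ip6k2, Ly6a, Ms4a6c and Tmc7) and 1 each without sgBap1-CCl4 replicate 3 (Aqp8) and sgBap1-Veh replicate 1 (Pim3). Where 1 mouse was left in a group, it was assumed to vary like the others. The cause of these differences was not tested. The replicate numbers did not pair the mice (correlations of deviations -0.15 to 0.10), and the block left 0 calls. No named gene changed the sign of its interaction under any of these alternatives. CCl4 calls stayed within 1.5 times of 9178 in NTC (7212 to 10561) and 9700 in sgBap1 livers (7729 to 11002). The other fits moved 1 list median by more than the spread between mice, that of adipocyte markers (0.44 with limma-voom, 1.62 in the main analysis). For pancreatic markers a mean of at least 10 counts left no gene.

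With each mouse left out, list medians ranged from -0.0478 to 0.14 for hepatocyte transcription factors, -0.88 to -0.66 for fatty acid synthesis, -0.46 to 0.23 for cholesterol synthesis, -0.0280 to 0.26 for fatty acid oxidation, -0.26 to 0.00558 for glucose metabolism, -0.23 to 0.0337 for the growth hormone axis, -0.12 to 0.40 for the acute phase, -0.34 to 0.0516 for the clock, 0.33 to 0.65 for p53 targets and 0.29 to 0.77 for immediate early genes. They ranged from -0.0289 to 0.20 for ER stress, 0.10 to 0.19 for heat shock, -0.52 to -0.19 for DNA replication, -0.21 to 0.51 for matrix, -0.37 to 0.12 for endothelial, -0.41 to 0.14 for bile duct, -0.48 to 1.98 for adipocyte and -1.33 to -0.0460 for pancreatic markers. Immune lists ranged from -1.45 to -0.88 for MHC class II, -0.56 to -0.41 for class I, -0.97 to -0.18 for chemokine ligands, -0.77 to -0.41 for chemokine receptors, -1.20 to -0.75 for Kupffer, -0.95 to 0.17 for neutrophil, -1.85 to -0.76 for T and NK, -1.61 to -0.73 for B, -0.79 to -0.34 for dendritic cells, -1.13 to -0.69 for leukocyte signalling and -0.81 to -0.53 for the inflammasome. The other lists moved less than the spread between mice. With 2 mice in each vehicle group, genes that differ there by little cannot be told from spread.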
